A study of Mus musculus with 22 samples.

Results

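G6pc, Pck1, Tat and Igfbp1, 4 genes that the liver uses in fasting, were followed in mouse livers after an injection of interferon-gamma. They were taken as the named genes with a probe set assigned to 1 gene symbol on the array, which all 4 had, out of 8251 genes measured. Each gene was read from its probe set with the highest mean over the 22 arrays. In livers taken 4 h after interferon-gamma, G6pc and Tat stood below the PBS livers of the same hour in both genotypes. The fall of each passed the test against all control livers together and did not pass it against the PBS 4 h livers alone. Neither fall passed in either comparison without the SOCS1-/-IFNg-/- array at 4 h. Pck1 and Igfbp1 passed in neither comparison.

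When blood glucose runs low, glucagon and glucocorticoids switch on genes for making glucose in the liver, and insulin switches them off. Pck1 encodes the cytosolic phosphoenolpyruvate carboxykinase, which opens the path from oxaloacetate to glucose, and G6pc encodes the catalytic subunit of glucose-6-phosphatase, which closes it by releasing free glucose. Tat encodes tyrosine aminotransferase, which feeds the carbon of tyrosine into that path and is a classic glucocorticoid target of the hepatocyte. Igfbp1 encodes a secreted binding protein of insulin-like growth factors that rises in fasting and falls with insulin.

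The mice were of 2 genotypes, SOCS1-/-IFNg-/- and IFNg-/-. Both lack their own interferon-gamma, so the cytokine comes from the injection, and the SOCS1-/-IFNg-/- mice also lack suppressor of cytokine signalling 1, a feedback inhibitor of the JAK kinases that interferon-gamma activates. Mice received 4 µg of recombinant interferon-gamma in 100 µl by the intraperitoneal route, and livers were collected 0.5, 1, 2, 4, 12, 16, 24 or 48 h later. Control livers came from mice given 100 µl of phosphate-buffered saline (PBS), taken at 4 and 12 h, and from mice that were not injected. Each of the 11 conditions had 1 array per genotype and no replicate. No source used here gives the age, strain or feeding state of the mice, the hour of the day, or whether a sample was 1 mouse or a pool. In all tests of conditions the arrays of both genotypes stood in for replicates. A p-value thus measures a difference only against how far the genotype difference varied between conditions, and not against a spread between animals. A genotype difference particular to 1 condition widens the SE of every condition contrast of that gene.

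Values are the deposited log2 expression values. Hepatocyte markers, of which 7 of 8 were measured, averaged 11.05 to 11.41 on the 22 arrays, and markers of kidney, the other organ that makes glucose, averaged 3.23 to 3.58. In a liver sample, fewer cells of a type and less RNA per cell cannot be told apart. Socs1 lay between 6.57 and 7.02 on the SOCS1-/-IFNg-/- arrays and reached 9.21 at 2 h in IFNg-/- livers. The interferon-inducible genes Cxcl9 and Gbp2 stood apart on the PBS 12 h arrays. Cxcl9 was 8.31 there in SOCS1-/-IFNg-/- and 7.76 in IFNg-/-, against 4.16 to 4.46 on the other 4 control arrays. Gbp2 was 7.60 and 6.44 on the same 2 arrays, against 4.27 to 4.66 on the other 4. The IFNg-/- array at 4 h of interferon-gamma lay below its neighbours in time for both genes. Cxcl9 was 8.06 there, against 10.25 at 2 h and 10.99 at 12 h in the same genotype, and 11.33 in SOCS1-/-IFNg-/- at 4 h. Gbp2 was 7.89 there, against 9.73 at 2 h and 8.96 at 12 h, and 11.34 in SOCS1-/-IFNg-/- at 4 h. The SOCS1-/-IFNg-/- array at 4 h of interferon-gamma had the lowest median correlation with the other arrays, 0.972 against 0.984 to 0.993. The next lowest were the SOCS1-/-IFNg-/- arrays at 12, 16 and 2 h of interferon-gamma (0.984, 0.985 and 0.985). Condition calls of the 4 genes that rest on the 4 h livers are also given without the SOCS1-/-IFNg-/- array at 4 h. Their contrasts with all controls are also given without the PBS 12 h arrays. For other named genes only the full fit is given.

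The promoters of the 4 genes are printed for comparison, since their levels at 4 h did not all go the same way. Each line holds the 250 bases before the annotated start of transcription, read 5′ to 3′ on the plus strand, from RefSeq (GRCm38.p6). They lie at chr11:101367466-101367715 for G6pc, chr2:173152823-173153072 for Pck1, chr8:109990186-109990435 for Tat and chr11:7197537-7197786 for Igfbp1. The start used for Tat lies inside its annotated gene, which spans 109986078 to 109999804 on chromosome 8. Capitals mark matches to motifs that were chosen after the promoters had been read.
G6pc: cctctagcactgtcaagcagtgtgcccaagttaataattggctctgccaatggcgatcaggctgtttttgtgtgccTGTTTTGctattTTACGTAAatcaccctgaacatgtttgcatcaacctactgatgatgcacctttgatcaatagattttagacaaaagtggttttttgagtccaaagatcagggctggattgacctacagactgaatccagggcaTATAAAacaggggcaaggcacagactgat
Pck1: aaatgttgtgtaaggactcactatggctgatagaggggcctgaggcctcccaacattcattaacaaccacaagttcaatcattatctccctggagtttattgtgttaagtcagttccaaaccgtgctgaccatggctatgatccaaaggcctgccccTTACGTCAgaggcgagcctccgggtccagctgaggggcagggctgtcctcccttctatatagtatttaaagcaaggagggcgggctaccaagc
Tat: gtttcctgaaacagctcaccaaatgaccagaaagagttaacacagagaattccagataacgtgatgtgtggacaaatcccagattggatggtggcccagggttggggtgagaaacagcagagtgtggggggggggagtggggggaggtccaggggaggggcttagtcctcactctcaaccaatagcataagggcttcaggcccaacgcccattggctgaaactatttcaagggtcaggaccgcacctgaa
Igfbp1: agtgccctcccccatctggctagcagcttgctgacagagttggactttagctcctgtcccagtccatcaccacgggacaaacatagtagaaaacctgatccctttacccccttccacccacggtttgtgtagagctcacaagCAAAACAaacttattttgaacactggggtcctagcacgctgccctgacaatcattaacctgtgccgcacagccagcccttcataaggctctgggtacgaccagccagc

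Positions are counted back from the start, with -1 as the base before it, and both strands were searched. CAAAACA, the core of the insulin response sequence, matched in Igfbp1 from -108 to -102 and in G6pc on the minus strand from -174 to -168, where the plus strand reads TGTTTTG. It is present in 5.56% of 32851 promoters of this length. TTACGTNA, a variant of the cAMP response element through which glucagon acts, matched in Pck1 from -93 to -86 and in G6pc from -162 to -155, and is present in 0.788% of promoters. The G6pc match reads the same on both strands. TATAAA matched in G6pc from -29 to -24 and is present in 12.4%. No member held GTAAACA (3.17% of promoters), TGACGTCA (1.55%), TGTTCT (16.1%), the glucocorticoid palindrome (0.00913%), whose arm is TGTTCT, or TTCNNNGAA, the gamma-activated site of STAT factors (7.02%). Tat held no match to any of the 8 motifs. A match is a run of letters and not a shown binding site, and these windows leave out enhancers farther away.

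The level of each gene on every array, plotted by hour, shows a trough at 4 h for G6pc and Tat, an early high stretch for Igfbp1, and the narrowest range of the 4 for Pck1.

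**Figure D1:**
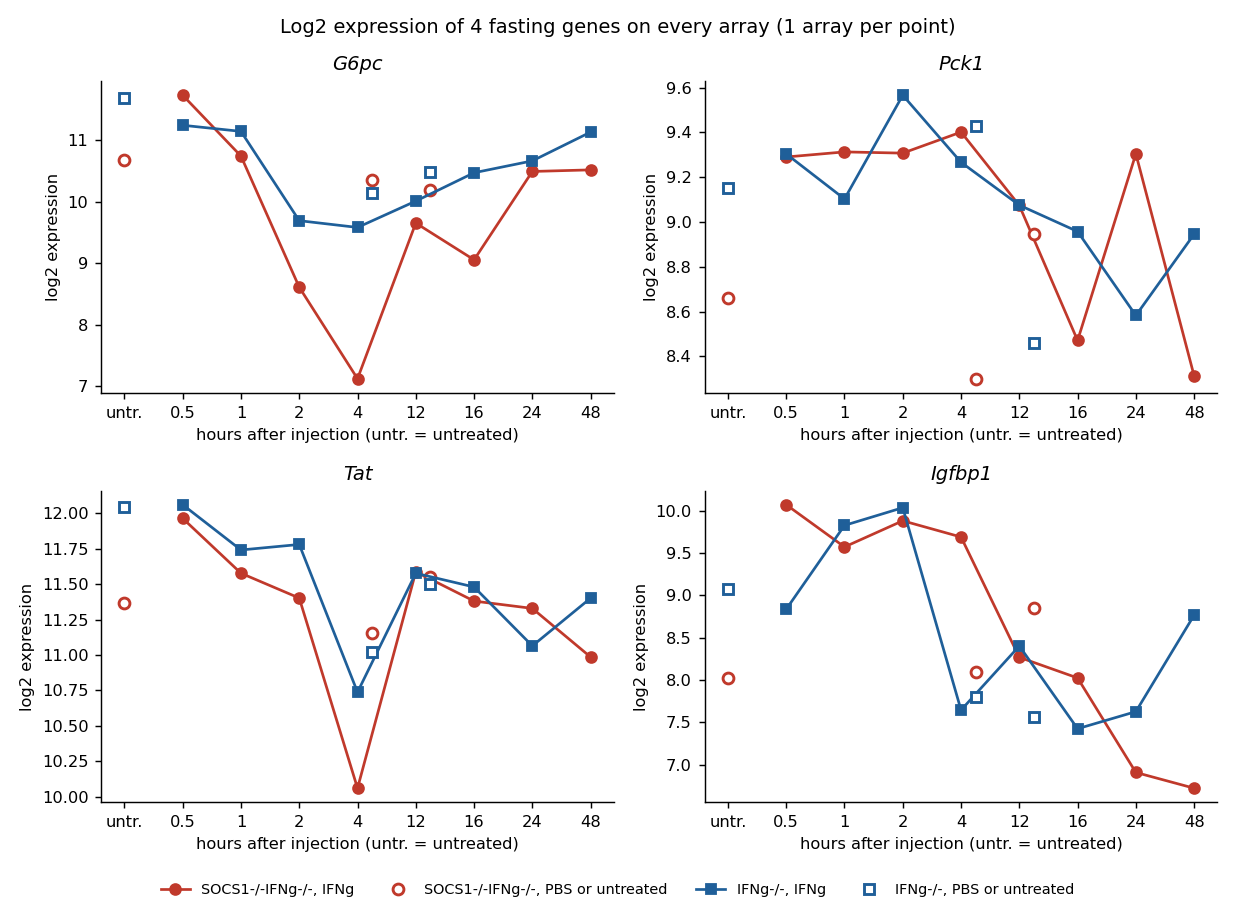
Log2 expression of G6pc, Pck1, Tat and Igfbp1 on each of the 22 arrays, against hours after injection, with times spaced evenly and not to scale. Red circles are SOCS1-/-IFNg-/- and blue squares IFNg-/-. Filled points joined by lines are interferon-gamma livers, and open points are PBS livers, set just right of the interferon-gamma livers of their hour, or untreated livers. The lowest G6pc value, 7.12, and the lowest Tat value, 10.06, are both SOCS1-/-IFNg-/- at 4 h. The vertical axes differ between panels.

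The comparison at 4 h asked how interferon-gamma livers differ from livers injected with vehicle and taken at the same hour. G6pc was 7.12 in SOCS1-/-IFNg-/- and 9.58 in IFNg-/- livers after interferon-gamma, against 10.36 and 10.14 in the PBS livers of the same genotypes. Both interferon-gamma livers were the lower, with 1 array per genotype on each side. How many of the 8251 genes separate in this way was not counted. The difference was -3.24 in SOCS1-/-IFNg-/-, a 9.44-fold lower level, and -0.56 in IFNg-/-, a 1.48-fold lower level. In both genotypes together it was -1.90 ± 0.48 (SE; unadjusted 95% interval, as in all that follow, -2.92 to -0.88; adjusted p = 0.0693 by limma), which did not pass the threshold of 0.05. Over all genes, limma called 112 of 8251 in this comparison (1.36%), 30 of them lower (0.364%) and 82 higher (0.994%), and 0 of the 4 fasting genes were among the 112.

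This value depended on single arrays. With only the SOCS1-/-IFNg-/- array standing for interferon-gamma at 4 h, the G6pc difference was -2.90 and passed (adjusted p = 0.000346 by limma), and 536 genes were called. With only the IFNg-/- array it was -0.90 (adjusted p = 0.488), and 30 genes were called. Without the SOCS1-/-IFNg-/- PBS 4 h array it was -1.43 (adjusted p = 0.547). Irf1, a transcription factor induced by interferon-gamma, stood at 10.73 in SOCS1-/-IFNg-/- and 7.71 in IFNg-/- at 4 h, against 7.38 and 7.14 in the PBS livers. Hepatocyte markers, of which Tat is one, averaged 11.10 on both interferon-gamma arrays, against 11.41 and 11.26 on the PBS arrays. Without Tat the other 6 averaged 11.28 in SOCS1-/-IFNg-/- and 11.16 in IFNg-/- after interferon-gamma, against 11.45 and 11.30 after PBS. The 3-prime minus 5-prime difference of Actb, a mark of RNA quality, was 0.33 in SOCS1-/-IFNg-/- and 0.77 in IFNg-/- after interferon-gamma, against 0.66 and 0.83 after PBS. That of Gapdh was 0.47 and 0.54 after interferon-gamma, against 0.42 and 0.55 after PBS. The part of these in the G6pc result was not tested.

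Tat differed in the same direction as G6pc and by less. It was 10.06 in SOCS1-/-IFNg-/- and 10.74 in IFNg-/- livers 4 h after interferon-gamma, against 11.16 and 11.02 in PBS livers. These 2 interferon-gamma arrays were the lowest of all 22 for Tat. The difference was -1.10 in SOCS1-/-IFNg-/- and -0.28 in IFNg-/-, and -0.69 ± 0.19 in both together (95% interval -1.10 to -0.28; adjusted p = 0.108 by limma). With only the SOCS1-/-IFNg-/- array at 4 h the difference was -0.96 and passed (adjusted p = 0.0115 by limma), and with only the IFNg-/- array it was -0.42 (adjusted p = 0.529).

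Pck1 did not share this direction in SOCS1-/-IFNg-/- livers. Its level there was 9.40 after interferon-gamma, against 8.30 after PBS, a difference of 1.10. In IFNg-/- livers it was 9.27, against 9.43, a difference of -0.16. The groups overlapped, and the PBS 4 h level in SOCS1-/-IFNg-/- was the lowest Pck1 value of the 22 arrays. Together the difference was 0.47 ± 0.31 (95% interval -0.20 to 1.14; adjusted p = 0.644 by limma), and it turned to -0.077 without that PBS array.

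Igfbp1 was split by genotype at 4 h. In SOCS1-/-IFNg-/- livers it was 9.69 after interferon-gamma, against 8.10 after PBS, a difference of 1.59. In IFNg-/- livers it was 7.64, against 7.80, a difference of -0.16. Together the difference was 0.72 ± 0.68 (95% interval -0.72 to 2.16; adjusted p = 0.793 by limma), and the interval leaves room for a change in either direction. It was 1.79 with only the SOCS1-/-IFNg-/- array at 4 h and -0.35 with only the IFNg-/- array. A second probe set of Igfbp1 lay between 3.23 and 3.67 on the 22 arrays, below the array medians of 5.64 to 5.71, and differed by -0.039 at 4 h. The Igfbp1 probe set used here carries the manufacturer's mark for probes that can match several members of a gene family, so its values may not be Igfbp1 alone.

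**Figure D2:**
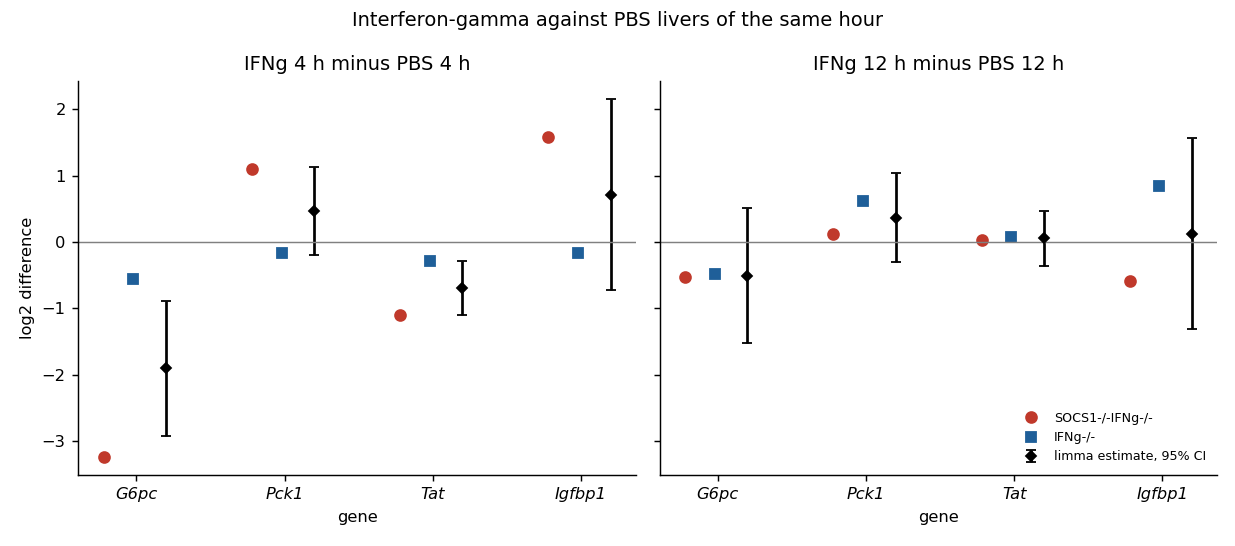
Log2 difference between interferon-gamma and PBS livers of the same hour, at 4 h (left) and 12 h (right), for the 4 genes. Red circles are the SOCS1-/-IFNg-/- pair of arrays and blue squares the IFNg-/- pair. Black diamonds are limma's estimate over both genotypes with its 95% confidence interval. At 4 h the G6pc interval runs from -2.92 to -0.88 and that of Tat from -1.10 to -0.28, and at 12 h all 4 intervals include 0.

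Of 19 measured genes of gluconeogenesis and glucose transport, 0 rose and 0 fell at 4 h against PBS 4 h by limma, and 6 had an unadjusted p under 0.05. Over all genes 1001 of 8251 had such a p (12.1%). The median difference of the 19 was -0.09, with 13 below 0, beside a median of -0.02 and 4707 of 8251 below 0 over all genes. Slc2a2, the glucose transporter of hepatocytes, was the nearest to the threshold, with -1.14 ± 0.28 (adjusted p = 0.0613 by limma). It was 7.99 in SOCS1-/-IFNg-/- and 8.23 in IFNg-/- after interferon-gamma, against 9.58 and 8.93 after PBS. Both genotypes reached a similar level after interferon-gamma. Slc37a4, which carries glucose-6-phosphate to the phosphatase, differed by -0.56 ± 0.20 (adjusted p = 0.234), and Fbp1, the fructose bisphosphatase of the path, by -0.34 ± 0.12 (adjusted p = 0.243). Ldha, which makes lactate from pyruvate and back, differed by 0.40 ± 0.13 (adjusted p = 0.194). In this comparison these 4 genes were named after their values were seen.

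Among 18 measured genes of amino acid breakdown and the urea cycle, Tat included, 1 fell and 0 rose at 4 h, and 5 had an unadjusted p under 0.05. Their median difference was -0.22, with 16 of 18 below 0. Over all genes 1.36% were called, 12.1% had such a p and 4707 of 8251 were below 0. The gene that fell was Ddc, the decarboxylase of aromatic amino acids (-0.92 ± 0.12, adjusted p = 0.00137 by limma). Of 27 glucocorticoid targets, which include G6pc, Pck1, Tat and Igfbp1, 2 rose and 0 fell, with a median of 0.18 and 11 of 27 below 0. The 2 were the metallothionein Mt2 (2.90 ± 0.66, adjusted p = 0.0454) and the lipocalin Lcn2 (2.85 ± 0.51, adjusted p = 0.0115), both also acute phase genes. Of 20 genes of insulin and glucagon signalling 1 rose, Crem, which encodes a cAMP-responsive factor (1.06 ± 0.19, adjusted p = 0.0121). Of 25 transcription factors of the fasted liver 1 rose, Stat3 (0.55 ± 0.13, adjusted p = 0.0454), and 1 fell, Nr2f2 (-0.73 ± 0.16, adjusted p = 0.042). Unadjusted p was under 0.05 for 11 of the 27, 2 of the 20 and 7 of the 25 genes, against 12.1% of all genes. G6pc and Tat were among the 11. In glycolysis and glycogen (13 genes), the insulin-like growth factor axis (12), ketogenic fasting genes (20), clock genes (15) and the stress response to amino acid shortage (12), 0 genes passed in either direction. Unadjusted p was under 0.05 for 5, 0, 2, 2 and 1 of them, in that order. Among these last lists, all but glycolysis and glycogen had shares near or below the 12.1% of all genes.

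At 12 h none of the 4 genes passed the test against the PBS livers of that hour, and the intervals of G6pc, Pck1 and Igfbp1 leave room for differences of over 1 log2 unit. G6pc was 9.65 in SOCS1-/-IFNg-/- and 10.01 in IFNg-/- after interferon-gamma, against 10.19 and 10.49 after PBS. It stood lower in both genotypes, by -0.53 and -0.48, and together by -0.51 ± 0.48 (95% interval -1.52 to 0.51; adjusted p = 0.932 by limma). Tat was 11.59 and 11.58, against 11.55 and 11.50, with a difference of 0.06 ± 0.19 (95% interval -0.35 to 0.47). Pck1 was 9.07 and 9.08, against 8.95 and 8.46 (0.37 ± 0.31; 95% interval -0.30 to 1.04). Igfbp1 was 8.27 and 8.40, against 8.85 and 7.56, and differed by -0.58 in SOCS1-/-IFNg-/- and 0.84 in IFNg-/- (0.13 ± 0.68 together; 95% interval -1.31 to 1.57). Of the 4 genes 0 were called, where 9 of 8251 genes were called in all (0.109%), each of them higher. The PBS 12 h arrays are those with raised Cxcl9 and Gbp2, so this comparison is against livers that themselves carried interferon-inducible transcripts.

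Times without a PBS liver of their own could be set only against the 3 control conditions together (untreated, PBS 4 h and PBS 12 h), and every such contrast shares those 6 arrays. At 0.5, 1, 2, 4, 12, 16, 24 and 48 h, G6pc in SOCS1-/-IFNg-/- livers read 11.74, 10.74, 8.61, 7.12, 9.65, 9.06, 10.49 and 10.52. In IFNg-/- livers at the same times it read 11.25, 11.15, 9.69, 9.58, 10.01, 10.47, 10.67 and 11.14. The 6 control livers ran from 10.14 to 11.69 with a median of 10.43. The 2 and 4 h arrays were below every control array in both genotypes. The SOCS1-/-IFNg-/- arrays at 12 and 16 h and the IFNg-/- array at 12 h were below them too.

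Against these controls G6pc fell by 2.24 ± 0.39 at 4 h on the log2 scale (adjusted p = 0.00388 by limma), and Tat fell by 1.04 ± 0.16 (adjusted p = 0.00141). Both calls stand in a comparison in which limma called 415 of 8251 genes (5.03%), 156 of them lower (1.89%) and 259 higher (3.14%). Without both PBS 12 h arrays the differences were -2.37 (adjusted p = 0.00688) and -0.998 (adjusted p = 0.00435). Without the SOCS1-/-IFNg-/- array at 4 h neither passed: G6pc was at -1.24 (adjusted p = 0.168) and Tat at -0.77 (adjusted p = 0.0905). Pck1 differed by 0.51 ± 0.26 and Igfbp1 by 0.43 ± 0.55 at 4 h (adjusted p = 0.325 and 0.768), and by 0.45 and 0.42 without both PBS 12 h arrays. Of the 19 gluconeogenesis genes, 2 fell in this contrast, G6pc and Slc2a2 (-0.94 ± 0.23, adjusted p = 0.0277), and 1 rose, Ldha (0.46 ± 0.11, adjusted p = 0.0243). Of the 18 genes of amino acid breakdown 4 fell and 0 rose. They were Tat, Ddc (-1.17 ± 0.10), the histidine ammonia-lyase Hal (-0.70 ± 0.16) and Hpd, the enzyme after Tat in tyrosine breakdown (-0.40 ± 0.09). Among the glucocorticoid targets Mt2 (4.04 ± 0.54), Mt1 (3.86 ± 0.58), Lcn2 (2.90 ± 0.41), Fkbp5, Nfkbia and Gadd45b rose. Ppp1r3c (-0.51 ± 0.14) fell with G6pc and Tat, which are also on that list. Of the fasted liver factors, Foxa3 (1.52 ± 0.18) and Stat3 (0.68 ± 0.10) rose. Srebf1 (-1.14 ± 0.22) and Nr2f2 (-0.66 ± 0.13) fell. In the remaining lists Crem, Akt2, Pfkfb3 and Cpt1a rose, and Foxo3 and Acadvl fell.

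At the other 7 times 0 of the 4 genes were called in either direction. Limma called 0% of all genes at 0.5 h, where the smallest adjusted p was 0.369 and 478 genes had an unadjusted p under 0.05. At 1 h it called 0.158%, and the shares for 2, 12, 16, 24 and 48 h were 1.66%, 1.42%, 0.448%, 0.17% and 0.0121%. At 2 h G6pc differed by -1.44 ± 0.39 (adjusted p = 0.0843 by limma) and Tat by 0.15 ± 0.16 (adjusted p = 0.828), so the 2 genes stood apart at that hour. The G6pc difference at 2 h passed when either 4 h interferon-gamma array was left out of the fit (adjusted p = 0.00596), and with array weights (adjusted p = 0.00388). It did not pass in the other 27 of 30 alternatives, which include controls without both PBS 12 h arrays (-1.57, adjusted p = 0.112) and controls without both untreated arrays (-1.14, adjusted p = 0.310). At 0.5 h G6pc differed by 0.90 ± 0.39 and Tat by 0.57 ± 0.16 (adjusted p = 0.827 and 0.491). With 1 array left out in turn, the G6pc value at 0.5 h ran from 0.27 to 1.52. Without both PBS 12 h arrays among the controls, 0 of the 28 differences at these 7 times passed, and none moved by more than 0.13. From 12 h on, Tat lay between -0.25 and 0.14 of the controls, and G6pc between -0.83 and 0.23.

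Igfbp1 ran high in the first hours. In SOCS1-/-IFNg-/- livers it read 10.07, 9.57, 9.88 and 9.69 at 0.5, 1, 2 and 4 h, and 8.27, 8.02, 6.91 and 6.72 at 12, 16, 24 and 48 h. In IFNg-/- livers it read 8.84, 9.83, 10.03 and 7.64 at the early times and 8.40, 7.42, 7.63 and 8.77 at the late ones. The 6 control livers ran from 7.56 to 9.07 with a median of 8.06. Both genotypes were above every control at 1 and 2 h, and at 0.5 and 4 h only SOCS1-/-IFNg-/- was. The share of all genes that separate from the controls like this was not counted. For 0.5, 1, 2 and 24 h the differences from controls were 1.22, 1.46, 1.72 and -0.97, each ± 0.55, with adjusted p = 0.836, 0.868, 0.168 and 0.617 by limma. The 2 h difference passed with array weights (adjusted p = 0.0326) and in none of its other 30 alternatives. It was 1.71 without both PBS 12 h arrays (adjusted p = 0.224) and 1.88 without both untreated arrays (adjusted p = 0.174). It was -0.067 in the second, low probe set. No PBS liver was taken before 4 h, so injection and interferon-gamma cannot be told apart at these times.

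Pck1 stayed within 1.27 log2 units over the 22 arrays. In SOCS1-/-IFNg-/- livers it read 9.29, 9.31, 9.31, 9.40, 9.07, 8.47, 9.30 and 8.31 at the 8 times, and in IFNg-/- livers 9.30, 9.10, 9.57, 9.27, 9.08, 8.96, 8.58 and 8.95. The 6 control livers ran from 8.30 to 9.43. The largest of its 8 differences from controls was 0.61 ± 0.26 at 2 h (adjusted p = 0.364 by limma). Tat read 11.97, 11.58, 11.40, 10.06, 11.59, 11.38, 11.33 and 10.99 in SOCS1-/-IFNg-/- livers at the 8 times, and 12.06, 11.74, 11.78, 10.74, 11.58, 11.48, 11.06 and 11.40 in IFNg-/- livers. At 4 h Tat was below the control values of 11.02 to 12.04 in both genotypes, and at the neighbouring times of 2 and 12 h it was among them. The SOCS1-/-IFNg-/- array at 48 h, at 10.99, was also just below them. The lowest controls were the PBS 4 h arrays (11.16 in SOCS1-/-IFNg-/- and 11.02 in IFNg-/-).

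**Figure D3:**
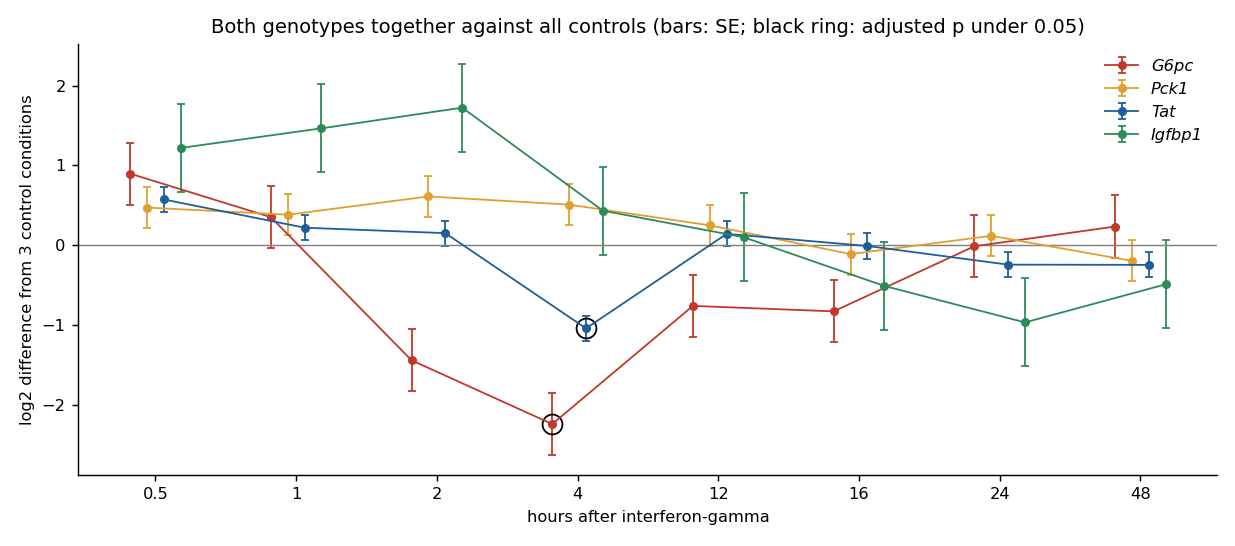
Log2 difference of each gene from the 3 control conditions at 8 times after interferon-gamma, estimated by limma over both genotypes. Bars are the SE, times are spaced evenly and not to scale, and a black ring marks an adjusted p under 0.05. The ringed points are G6pc at -2.24 and Tat at -1.04, both at 4 h. All points share the same 6 control arrays.

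With conditions ordered by the mean of both genotypes, 4 h of interferon-gamma was the lowest of 11 for G6pc (8.35) and Tat (10.40). In the IFNg-/- livers alone it was also the lowest of 11 for G6pc (9.58) and Tat (10.74). For Pck1 (9.33) it was the second highest, after 2 h (9.44). G6pc was highest at 0.5 h (11.49) and in untreated livers (11.19), and the PBS livers stood in the middle of the order (10.34 at 12 h and 10.25 at 4 h). Igfbp1 was highest at 2, 1 and 0.5 h (9.96, 9.70 and 9.45) and lowest at 24 h (7.27). A difference between 2 conditions had an unadjusted 95% half-width of 1.02 for G6pc, 1.44 for Igfbp1, 0.67 for Pck1 and 0.41 for Tat. Of the 10 steps between neighbours, the step of 0.69 for Tat between 4 h of interferon-gamma and PBS 4 h was past that width. For G6pc, Pck1 and Igfbp1 0 of the 10 steps were.

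The mean of the 12, 16, 24 and 48 h livers was then set against the 4 h livers. G6pc rose by 1.90 ± 0.38 (3.73-fold; adjusted p = 0.00836 by limma) and Tat by 0.95 ± 0.15 (1.94-fold; adjusted p = 0.00229). In this contrast 436 of 8251 genes were called (5.28%), 218 of them higher (2.64%), and 2 of the 4 fasting genes were among these. The same 4 h arrays gave the falls above, so these rises are not separate evidence. Each 4 h array was the lowest of its genotype for both genes, so every late array was above it by necessity. For G6pc the gaps ran from 1.93 to 3.40 in SOCS1-/-IFNg-/- and from 0.43 to 1.55 in IFNg-/-. For Tat they ran from 0.93 to 1.53 in SOCS1-/-IFNg-/- and from 0.33 to 0.84 in IFNg-/-. Without the SOCS1-/-IFNg-/- array at 4 h neither rise passed, with G6pc at 0.90 (adjusted p = 0.295) and Tat at 0.68 (adjusted p = 0.129), and neither passed with array weights (adjusted p = 0.0861 and 0.0788). Igfbp1 differed by -0.90 ± 0.53 and Pck1 by -0.49 ± 0.25 (adjusted p = 0.41 and 0.312). Of the 19 gluconeogenesis genes 2 rose, G6pc and Slc2a2 (0.86 ± 0.22, adjusted p = 0.0339), and of the 18 of amino acid breakdown 2 rose, Tat and Ddc (1.14 ± 0.10). Among the glucocorticoid targets Mt2 (-3.04 ± 0.52), Mt1 (-2.76 ± 0.56), Fkbp5, Nfkbia and Gadd45b fell, and Ppp1r3c rose with G6pc and Tat. Of the fasted liver factors, Foxa3 (-1.53 ± 0.17), Nr1d1 and Stat3 fell, and Srebf1 (0.91 ± 0.21), Nr2f2 and Esrra rose. In the remaining lists Pfkfb3, Hk2, Crem, Cpt1a, Nr1d2 and Xbp1 fell, and Foxo3, Cry1 and Per2 rose.

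PBS 4 h livers also stood below untreated ones in the 2 genes that were low at 4 h of interferon-gamma, and neither difference passed. G6pc was 10.36 in SOCS1-/-IFNg-/- and 10.14 in IFNg-/- at PBS 4 h, against 10.68 and 11.69 untreated, a difference of -0.94 ± 0.48 (95% interval -1.95 to 0.08; adjusted p = 0.636 by limma). Tat was 11.16 and 11.02, against 11.37 and 12.04, a difference of -0.62 ± 0.19 (95% interval -1.03 to -0.21; adjusted p = 0.448). With 1 array left out in turn, the difference ran from -1.41 to -0.46 for G6pc and from -0.89 to -0.35 for Tat. Both genes were below the untreated liver of the same genotype in both genotypes, and for Tat this is nearly the size of the difference between interferon-gamma and PBS at 4 h. In this contrast 2 genes of 8251 were called (0.0242%) and 0 of the 4 fasting genes. Igfbp1 differed by -0.60 ± 0.68 and Pck1 by -0.04 ± 0.31. The clock repressor Nr1d1 stood at 7.21 in SOCS1-/-IFNg-/- and 7.41 in IFNg-/- at 4 h of interferon-gamma and at 7.57 and 7.58 at PBS 4 h, against 6.48 and 5.68 untreated. The 3-prime minus 5-prime difference of Actb was 0.66 and 0.83 at PBS 4 h, against 1.31 and 1.32 untreated, and that of Gapdh was 0.42 and 0.55, against 0.66 and 0.85. The part of these in the vehicle difference was not tested. At PBS 12 h G6pc differed from untreated by -0.85 ± 0.48 (adjusted p = 0.534) and Tat by -0.18 ± 0.19. There 9 genes were called (0.109%) and again 0 of the 4.

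The genotypes were compared within the 11 pairs of arrays that share treatment and time. G6pc was lower in SOCS1-/-IFNg-/- than in IFNg-/- in 9 of 11 pairs, by -0.65 ± 0.20 on average (95% interval -1.08 to -0.21; adjusted p = 0.341 by limma). Without the 4 h pair it was -0.47 (adjusted p = 0.352). Tat differed by -0.19 ± 0.08, Pck1 by -0.13 ± 0.13 and Igfbp1 by 0.10 ± 0.29 (adjusted p = 0.585, 0.93 and 0.981). Limma called 17 of 8251 genes (0.206%) and 0 of these 4.

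The genotype difference of the 4 h pair was then set against that of the other 10 pairs, which come from other conditions. A single pair has no spread of its own, so this fit assumes that it varies like the other 10. For G6pc the 4 h pair differed by -2.46, while the others ran from -1.42 at 16 h to 0.49 at 0.5 h, with a mean of -0.47 ± 0.59 (SD, n = 10 pairs). The 4 h pair stood -2.00 ± 0.50 from the others (95% interval -3.06 to -0.93), which passed (adjusted p = 0.0394 by limma). In this comparison 277 genes were called (3.36%), 50 of them in the same direction (0.606%), and G6pc was the 1 of the 4 among them. Leaving out either array of a pair removes the whole pair, so the 20 fits without 1 array hold each fit more than once. G6pc did not pass in 8 of these 20, namely those without either array of the PBS 12 h, 1, 24 or 48 h pairs. It was also lost with trend and robust fitting (adjusted p = 0.176) and without dim genes (adjusted p = 0.0503). Igfbp1 stood 2.14 ± 0.86 higher at 4 h than in the other pairs (adjusted p = 0.192), with pairs from -2.04 at 48 h to 2.04 at 4 h. Tat stood at -0.54 ± 0.25 (adjusted p = 0.258) and Pck1 at 0.29 ± 0.47 (adjusted p = 0.731). The 4 h pair rests on 1 array of each genotype, and the SOCS1-/-IFNg-/- one is the array that correlated least with the rest.

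**Figure D4:**
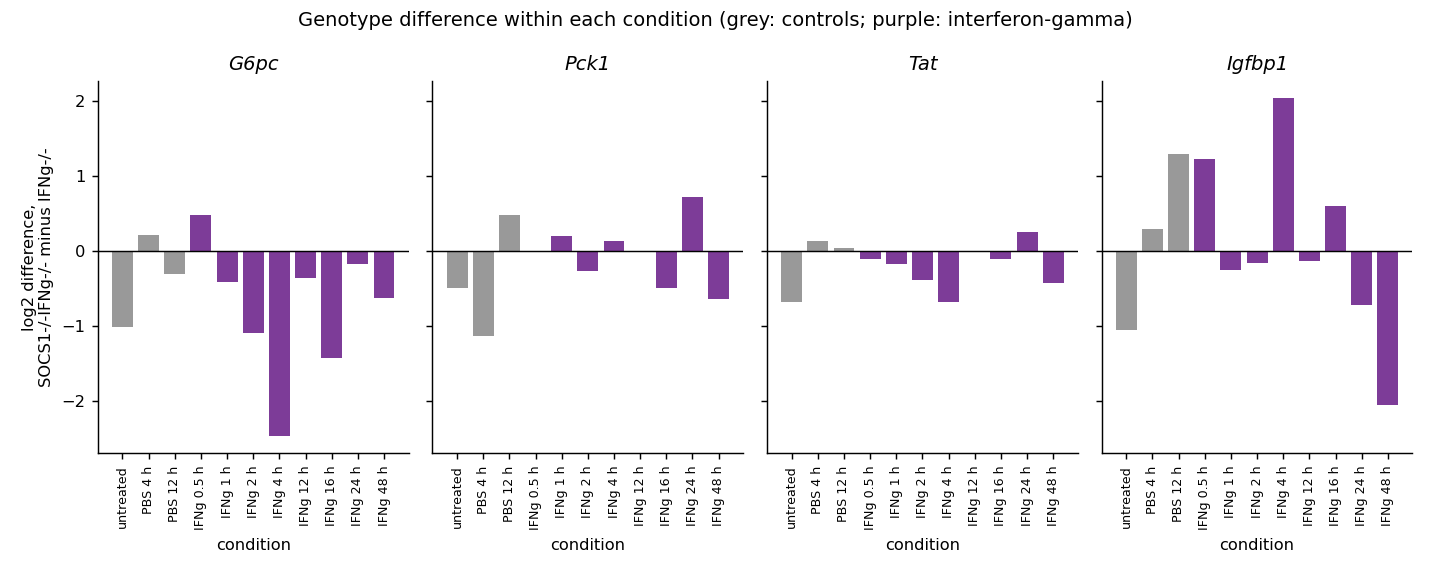
Log2 difference between SOCS1-/-IFNg-/- and IFNg-/- within each of the 11 conditions, 1 pair of arrays per bar, for the 4 genes. Grey bars are the control conditions and purple bars interferon-gamma. The longest G6pc bar is -2.46 at 4 h, and those of Igfbp1 are 2.04 at 4 h and -2.04 at 48 h. There is no error bar because each bar is a single pair.

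The spread of each gene over all conditions was described last. Over all 22 arrays G6pc spanned 4.61 log2 units, rank 23 of 8251 genes by span. Igfbp1 spanned 3.35 (rank 39), Tat 2.00 (rank 163) and Pck1 1.27 (rank 452), beside a median gene at 0.47. Without the SOCS1-/-IFNg-/- array at 4 h, an alternative chosen after seeing the data, G6pc spanned 3.12 (rank 35) and Tat 1.32 (rank 307). The spans of Igfbp1 and Pck1 were the same without it. G6pc and Tat had a Pearson r of 0.69 over 22 arrays, which was 0.45 without that array and 0.40 without both arrays of that time. Tat and Igfbp1 had an r of 0.31 over 22 arrays, 0.66 without that array and 0.67 without both. Pck1 and Igfbp1 had an r of 0.57 over 22 arrays and 0.59 without both. G6pc showed little relation to Igfbp1 (r = -0.09) or to Pck1 (r = -0.15). The genes most like G6pc over the 22 arrays were Gas1 (r = 0.87), Fbxo3, 0610005C13Rik, Ankrd33b and Pde8a (each 0.85 to 0.86). Those most like Tat were Tmem41b (0.79), Anp32e (0.79), Svil (0.77), Plxna2 (0.74) and Pde8a (0.72). Igfbp1 was most like Rsrp1 (0.87), the immediate early gene Egr1 (0.83), the amino acid transporter Slc38a2 (0.83), the connexin Gja1 (0.81) and Cebpd (0.80). Pck1 was most like Mbd1 (0.71), Ppp1r15a (0.70), Slc38a2 (0.70), Fosl2 (0.69) and Ccdc152 (0.68). These values describe arrays that share treatments, times and 1 normalization. Without both 4 h arrays the 5 values of the genes listed for Tat ran from 0.37 to 0.58, and those for G6pc from 0.68 to 0.90. Those for Igfbp1 ran from 0.80 to 0.86 and those for Pck1 from 0.65 to 0.71.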

How the data were processed

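Per the labels' protocols, RNA of the 22 liver samples was prepared with Trizol and RNeasy and labelled as biotin cRNA for Affymetrix arrays. The authors deposited log2 values per probe set, and the submitters' processing notes name affy; no source used here gives its version, the background correction or the normalization. Values ran from 1.73 to 13.5, and array medians from 5.64 to 5.71. Of 12488 probe sets 66 were controls, 10833 had 1 gene symbol, 396 several and 1193 none; 8251 genes were tested, each by its probe set with the highest mean.

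Tests used limma 3.58.1 in R 4.3.3 with Benjamini-Hochberg adjustment over 8251 genes and a threshold of 0.05. Condition contrasts came from an additive model of condition and genotype (10 residual degrees of freedom), and genotype contrasts from the 11 within-pair differences (10, or 9 for the 4 h pair against the rest). The fits were tested on simulated data with independent noise and the same change at 4 h in both genotypes. That test does not cover a change that differs between the genotypes. The number of arrays limits the precision. Alternatives were array weights, trend and robust fitting, a filter at a mean log2 of 6, quantile normalization, the mean of probe sets, no genotype term, other controls, the other probe set, and leaving out each array.

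The members and lists were chosen with earlier results of these data known. Named genes are the 4 members, up to 5 called genes per list and comparison, the 5 most correlated genes per member, and checks. The checks are Socs1, Irf1 and the clock genes Nr1d1, Dbp, Per1 and Per2. More than 5 called genes are named for the glucocorticoid targets and the fasted liver factors. Cxcl9, Gbp2, Slc37a4, Fbp1 and the Actb and Gapdh control probe sets were added after values were seen, as were Slc2a2 and Ldha at 4 h against PBS, where neither passed. Protein sequences were not used here.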

Additional observations from a re-analysis of the deposited data

Results flagged for a closer look

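The genotype difference of G6pc at 4 h was set apart because it differed from that of the other 10 pairs by a test of the difference itself (-2.00 on the log2 scale, SOCS1-/-IFNg-/- minus IFNg-/-). It rests on 1 array of each genotype, and the pair has no spread of its own. It did not pass in 10 of 25 alternatives, which count each left-out pair once for each of its arrays.

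In 3 further results the genotypes lay on opposite sides of 0, and the difference between them was not tested within the contrast. Pck1 at 4 h of interferon-gamma minus PBS 4 h was 1.10 in SOCS1-/-IFNg-/- and -0.16 in IFNg-/-. Igfbp1 in the same contrast was 1.59 in SOCS1-/-IFNg-/- and -0.16 in IFNg-/-. Igfbp1 at 12 h of interferon-gamma minus PBS 12 h was -0.58 in SOCS1-/-IFNg-/- and 0.84 in IFNg-/-. Each of these values is a difference between 2 arrays.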

How the results depend on the processing

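All settings below are limma fits. Neither G6pc nor Tat passed against PBS 4 h in any alternative other than the fit without the IFNg-/- array at 4 h, and their differences kept their sign in all 28. With 1 array left out in turn, the difference from PBS 4 h ran from -2.90 to -0.90 for G6pc, -0.96 to -0.42 for Tat, -0.077 to 1.02 for Pck1 and -0.35 to 1.79 for Igfbp1. The difference from PBS 12 h ran from -0.074 to 0.19 for Tat and -0.53 to 0.79 for Igfbp1. Late minus 4 h ran from -1.97 to 0.17 for Igfbp1. PBS 4 h minus untreated ran from -0.59 to 0.50 for Pck1 and -1.23 to 0.035 for Igfbp1, and PBS 12 h minus untreated from -0.54 to 0.14 for Pck1, -0.45 to 0.090 for Tat and -0.998 to 0.31 for Igfbp1. Against all controls, Igfbp1 ran from -0.64 to 1.501 at 4 h, -0.12 to 0.32 at 12 h and -1.67 to 0.69 at 48 h. Pck1 ran from -0.31 to 0.084 at 16 h, -0.35 to 0.59 at 24 h and -0.47 to 0.080 at 48 h. Tat ran from -0.099 to 0.081 at 16 h and -0.49 to 0.0050 at 24 h, and G6pc from -0.27 to 0.25 at 24 h. The genotype difference of Igfbp1 over the pairs ran from -0.093 to 0.32, and that of G6pc at 4 h against the other pairs from -2.10 to -1.89. None of these sign changes concerned a result past the threshold.

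Genes called with 1 array left out ran from 17 to 536 (PBS 4 h), 1 to 32 (PBS 12 h), 38 to 848 (late minus 4 h), 0 to 3 (PBS 4 h minus untreated), 0 to 16 (PBS 12 h minus untreated) and 10 to 27 (genotype over 11 pairs), and calls of the 4 genes over the 8 times from 1 to 3, where all arrays gave 2 and array weights 4. Array weights gave 23, 19, 60, 198 and 28 genes for PBS 4 h, PBS 12 h, late minus 4 h, PBS 12 h minus untreated and genotype. Leaving out the genotype term gave 49, 0 and 1 for PBS 4 h, PBS 12 h and PBS 12 h minus untreated. Trend and robust fitting gave 0 for genotype over the pairs. The filter on dim genes, which tests fewer genes, gave 169 for the 4 h pair. G6pc at 4 h against the other pairs was -2.00 under both of the last settings and no longer passed.

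The other Igfbp1 probe set turned the sign: -0.039 and -0.023 against PBS 4 h and 12 h, 0.033 late minus 4 h, 0.013 PBS 4 h minus untreated, -0.060, -0.067, -0.025, -0.039, 0.097 and 0.096 against controls at 1, 2, 4, 12, 16 and 24 h, and -0.43 for the 4 h pair. Array weights turned the genotype difference of Igfbp1 to -0.039. Tat at 16 h turned to 0.034 without both PBS 12 h arrays and 0.12 without both untreated arrays. G6pc at 24 h turned to 0.091 with quantile normalization and 0.28 without both untreated arrays. Beyond what the left-out arrays show, the cause was not tested. With 1 array per genotype and condition, few arrays set the precision, and a difference within 1 genotype has no replicate check. The labels number no replicates, so no fit with a replicate number as a block was made. The condition term ties the 2 arrays of a condition in the condition contrasts, and the genotypes were compared within pairs.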
